A study of Mus musculus with 57 samples.

Results

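Heat shock proteins and chaperones were followed by RNA sequencing through 7 preparations of mouse bone marrow, after an antibody against PAPP-A or a control antibody. The members were chosen by name alone: the genes of the count table with an Ensembl ID whose symbol places them among the Hsp90, Hspa, Hsph, Hspb, Hspd and Hspe heat shock proteins, the DnaJ (Hsp40) proteins of classes A, B and C, the Cct chaperonin subunits or the BAG proteins 1 to 6, with processed pseudogenes (-ps) left out. This gave 90 of 56332 genes: 3 HSP90 genes, 12 HSP70 genes, 3 HSP110 genes, 45 J proteins, 8 small heat shock proteins, 2 genes of the mitochondrial chaperonin, 9 Cct genes, 6 BAG genes and 2 factors named for binding a heat shock protein, Hspbp1 (HSP70) and Hspbap1 (Hspb1). Hspa14 stood under 2 Ensembl IDs, 1 of which the GENCODE M21 annotation calls Gm45902, so that the 90 IDs carry 89 symbols. The names hold a few genes whose product is no classical chaperone, such as Hspb11, a subunit of the intraflagellar transport complex, and they miss others that are, such as Tcp1, the first subunit of the Cct ring.

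The mice were C57BL/6 males, 8 weeks old when the antibody was started, and every group had the antibody for 4 weeks. PAPP-A is a secreted protease that cleaves insulin-like growth factor binding proteins. Mesenchymal stromal cells (MSC) gave 4 anti-PAPP-A and 6 control libraries, haematopoietic stem cells (HSC) 4 and 3, and progenitors 4 and 4 in each of 3 kinds, the megakaryocyte-erythroid (MEP), the granulocyte-monocyte (GMP) and the common lymphoid (CLP), and Myeloid cells 6 and 6, while whole bone marrow (WBM) came from 4 control pools only. Each library was made from a pool of mice whose number of animals the labels do not state. A pool number stands for the same mice in every population, and no pool holds both antibodies.

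Chaperones hold unfolded or unstable proteins and let them fold, assemble or be degraded. HSP70 proteins grip short exposed stretches of a client in a cycle driven by ATP, in which J proteins deliver the client and HSP110 and BAG proteins release the nucleotide; HSP90 acts later on a smaller set of clients, and the Cct and Hspd1/Hspe1 rings enclose a client in the cytosol and in mitochondria. The heat shock factor HSF1 drives many of the cytosolic genes when unfolded protein builds up, whereas the unfolded protein response drives those of the endoplasmic reticulum (ER), where secreted proteins fold.

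Total counts ran between 107412 and 125537299 per library, and 4 libraries held fewer than 1000000. The markers listed for each sorted population were highest in that population. Summed over 6 stromal markers, MSC libraries had 40123 to 60956 counts per 1000000 (CPM) after anti-PAPP-A and 31066 to 57017 CPM in controls, and no other library passed 153 CPM; summed neutrophil markers came to 131849 to 177362 and 156463 to 214936 CPM in the Myeloid libraries. Some libraries stood apart. Plasma cell markers summed to 51177 CPM in anti-PAPP-A MSC pool 8 and 210755 CPM in control MSC pool 7, against medians of 1757 and 1887 CPM in their groups, and neutrophil markers to 8315 CPM in anti-PAPP-A CLP pool 2, 8447 CPM in control CLP pool 1 and 5615 CPM in anti-PAPP-A MEP pool 2. Erythroid markers summed to 208308 CPM in WBM pool 15. The HSC, CLP, GMP and MEP libraries all came from batch A of the labels. MSC came from batches A and C, and Myeloid from batches B and C. Myeloid was thus set on 1 scale with the progenitors only through the MSC and WBM libraries. Batch B held Myeloid alone, so the Myeloid level in the fit over control libraries rests on batch C. In preparations of many cells, fewer cells of a type and less RNA per cell cannot be told apart.

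The promoters of 4 members are printed because the genes of the ER and those of mitochondria and cytosol have different profiles below. Windows of 250 bases before and 50 after the start were matched by symbol in RefSeq for 73 of the 90 members. The ER stress element, searched on both strands as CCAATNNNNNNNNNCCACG, occurred in 3 members (4.11%), against 37 of 27025 genes (0.137%); all 3 are ER chaperones: Hspa5, Hsp90b1 and Dnajc3. A heat shock element, searched on both strands as GAANNTTCNNGAA, occurred in 4 members (5.48%), against 179 genes (0.662%); these were Hspd1 and Hspe1, which face each other and share the site, Hsph1 and Dnajb6. The E-box CACGTG was in 7 members (9.59%), against 8.09% of all genes. The 250 bases before the start follow, 5′ to 3′ on the gene's own strand in GRCm38.p6, with the ER stress element in capitals in the first 3 and 2 overlapping heat shock elements in capitals in the last.
Hspa5, chr2:34771840-34772089, plus strand: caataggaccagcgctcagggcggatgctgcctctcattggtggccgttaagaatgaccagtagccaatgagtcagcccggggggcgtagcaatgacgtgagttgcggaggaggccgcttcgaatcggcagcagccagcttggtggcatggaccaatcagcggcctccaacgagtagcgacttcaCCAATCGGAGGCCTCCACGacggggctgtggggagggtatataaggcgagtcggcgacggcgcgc
Hsp90b1, chr10:86705445-86705694, minus strand: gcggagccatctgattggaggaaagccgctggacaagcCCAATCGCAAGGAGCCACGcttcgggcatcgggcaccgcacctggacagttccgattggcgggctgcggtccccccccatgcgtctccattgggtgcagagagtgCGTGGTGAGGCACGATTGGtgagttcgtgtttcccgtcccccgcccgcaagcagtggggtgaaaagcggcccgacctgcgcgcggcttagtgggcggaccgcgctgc
Dnajc3, chr14:118937682-118937931, plus strand: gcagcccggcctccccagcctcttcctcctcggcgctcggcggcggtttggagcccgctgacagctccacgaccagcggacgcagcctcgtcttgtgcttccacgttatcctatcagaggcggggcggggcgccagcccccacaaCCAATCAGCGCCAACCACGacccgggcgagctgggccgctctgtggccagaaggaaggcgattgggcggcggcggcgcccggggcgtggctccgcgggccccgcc
Hspe1, chr1:55087898-55088147, plus strand: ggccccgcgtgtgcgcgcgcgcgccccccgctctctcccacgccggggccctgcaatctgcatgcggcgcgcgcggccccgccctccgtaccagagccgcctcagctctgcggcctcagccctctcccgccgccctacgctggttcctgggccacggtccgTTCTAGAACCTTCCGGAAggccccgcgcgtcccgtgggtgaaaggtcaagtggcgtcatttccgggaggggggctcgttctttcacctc
The element begins 65 bases before the start in Hspa5, 105 in Dnajc3, and 212 and 107 in Hsp90b1, whose second copy lies in reverse, and the Hspe1 sites begin 89 and 84 bases before it. A match describes these letters and was not tested for binding.

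Nearly the whole set was transcribed in marrow. A count was present in all 57 libraries for 57 members, and 83 members passed the filter on low counts over the 31 control libraries. The 7 that did not were Cct8l1, Dnajb8, Dnajc22, Dnajc5b, Dnajc5g, Hspb2 and Hspb3. Per kilobase of exon in control libraries, averaged over the 6 sorted populations, the cytosolic HSP90 gene Hsp90ab1 led with 719.9 CPM per kb, followed by the constitutive HSP70 gene Hspa8 with 695 CPM per kb. Then came Hspa5 with 381, Hsp90aa1, the stress-inducible HSP90, with 333, Hsp90b1 with 239 and Hspd1 with 159 CPM per kb. Hsp90ab1 was first in 5 of the 6 sorted populations. MSC had another order, with Hspa8 at 903, Hspa5 at 823 and Hsp90b1 at 475 CPM per kb ahead of Hsp90ab1 at 395.

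Levels of single genes below are in CPM scaled by TMM (trimmed mean of M-values) over all 57 libraries, and differences are log2 values with their standard error (SE) from the fit. A member is called when its adjusted p from edgeR's quasi-likelihood test, with Benjamini-Hochberg adjustment over all 21384 genes tested, was under 0.05. Each control population was set against the mean of the other 5 with 1 fit over all 31 control libraries that has batch as a term.

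Chaperone genes ran high in megakaryocyte-erythroid and granulocyte-monocyte progenitors and low in Myeloid cells, and in stroma the ER genes and the Cct ring took opposite directions. In MEP 33 of 83 members were higher and 6 lower, where 15.1% and 10.1% of all genes tested were called. GMP had 29 higher and 7 lower (12.1% and 7.24% of all genes). Myeloid cells went the other way, with 5 higher and 33 lower (14.2% and 19.9%). MSC had 28 higher and 30 lower (28.7% and 20.1%), so that the higher share was close to that of all genes. HSC had 11 higher and 8 lower (12.3% and 5.74%), and CLP had 6 higher and 5 lower (7.43% and 5.2%). The counts given below for single classes and lists come from the same contrasts, and these shares of all genes stand beside them too. The members' median log2 difference was 0.53 in MEP against -0.0034 for all genes, 0.49 in GMP against 0.06, and -0.77 in Myeloid against -0.26. It was -0.17 in MSC against 0.14, 0.10 in HSC against 0.07 and 0.0035 in CLP against 0.03.

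These counts did not stand equally firm when the mice of 1 control pool were left out, which removes that pool from every population. Of the 39 calls in MEP, 32 to 39 were made again in the same direction. Of the 58 in MSC 45 to 58 were, and of the 38 in Myeloid 31 to 38. All 38 were made again without pool 9, 11 or 13, but these pools hold Myeloid libraries of batch B alone. Leaving them out cannot move the fitted Myeloid level except through scaling and the spread. The GMP count was 15 without pool 5, against 30 to 45 without any other pool, so that 21 GMP calls rested on pool 5. Of the 19 HSC calls 6, 7 and 8 were made again without pools 3, 5 and 7, and of the 11 CLP calls 3, 4, 4 and 5 without pools 1, 3, 5 and 7. Scaling moved them too: with size factors (RLE) in place of TMM, the median of all genes was -0.18 in MEP, -0.14 in GMP, 0.24 in CLP and -0.09 in Myeloid. Relative to it the members' median was 0.54 in MEP, 0.42 in GMP, -0.01 in CLP and -0.52 in Myeloid. With RLE, GMP had 21 higher and 9 lower members and CLP 13 higher and 4 lower. DESeq2 gave 31 higher and 13 lower in MEP, 24 and 10 in GMP, 15 and 4 in CLP, and 12 and 33 in Myeloid. Of 258 calls summed over 8 control contrasts, 235 were made in the same direction with RLE and 246 with DESeq2, and none had the opposite sign with either. In batch A alone 166 of 180 were made again and 1 had the opposite sign, Dnajc18 in MSC, at -0.03 without a call. In batch C alone, where MSC and Myeloid can be set only against each other, 25 of 57 MSC calls and 24 of 36 Myeloid calls were made again, and 16 and 4 had the opposite sign. In batch A alone, with 4 populations to compare with, MEP had 34 higher and 7 lower, GMP 39 and 10, MSC 21 and 37, HSC 11 and 10, and CLP 10 and 11.

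**Figure D1:**
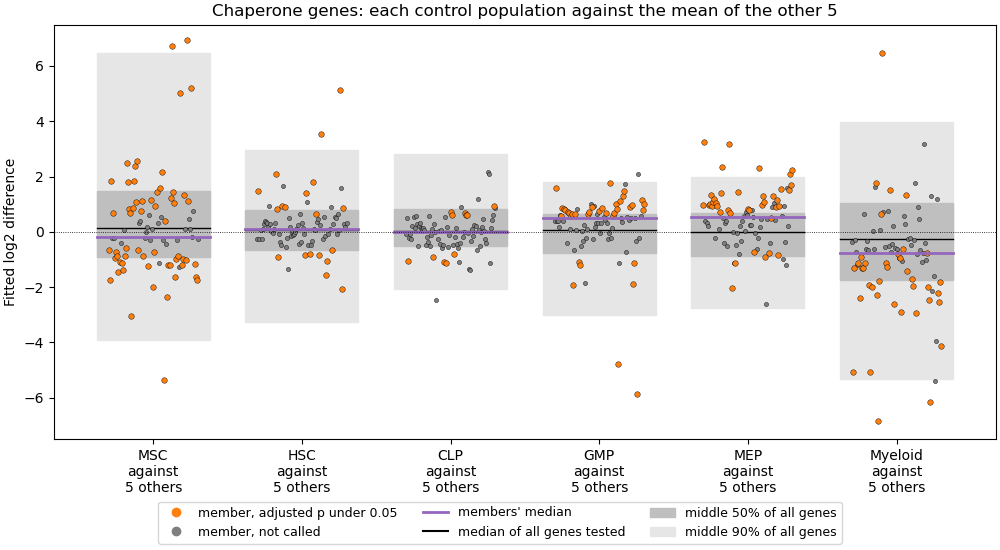
Fitted log2 difference of each member (points) in each control population against the mean of the other 5, with called members in orange, the members' median as a purple line, and the median, middle 50% and middle 90% of all 21384 genes as a black line and grey boxes. The members' median sits above that of all genes in MEP (0.53) and GMP (0.49) and below it in Myeloid (-0.77).

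Of the 83 members, 71 were called in at least 1 of these 6 contrasts. The share of all genes called in at least 1 was not computed, but in MSC alone 28.7% were called higher and 20.1% lower. The 12 called in none were Bag4, Cct6b, Dnaja1, Dnajc12, Dnajc17, Dnajc19, Dnajc28, Dnajc8, Hspa1l, Hspb6, Hspb7 and Hspb9. The highest control mean fell in MEP for 33 members, in MSC for 26 and in Myeloid for 11. It fell in GMP for 9, in HSC for 3 and in CLP for 1. How all genes divide between the populations was not computed. MEP was highest for 7 of 8 tested Cct genes, for both genes of the mitochondrial chaperonin and for all 3 HSP110 genes, whereas 17 of the 41 tested J proteins had their highest mean in MSC. Dnajc7, a J protein with tetratricopeptide repeats that also binds HSP90, averaged 138 ± 30.4 CPM in MSC, 134 ± 12.3 in MEP, 132 ± 16 in HSC, 115 ± 7.86 in CLP, 111 ± 37.1 in Myeloid and 105 ± 8.17 in GMP. Means are given below with their SD over 6 libraries in MSC and Myeloid, 3 in HSC and 4 each in CLP, GMP and MEP. The Myeloid means include batch B, on which the fitted Myeloid level does not rest.

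**Figure D2:**
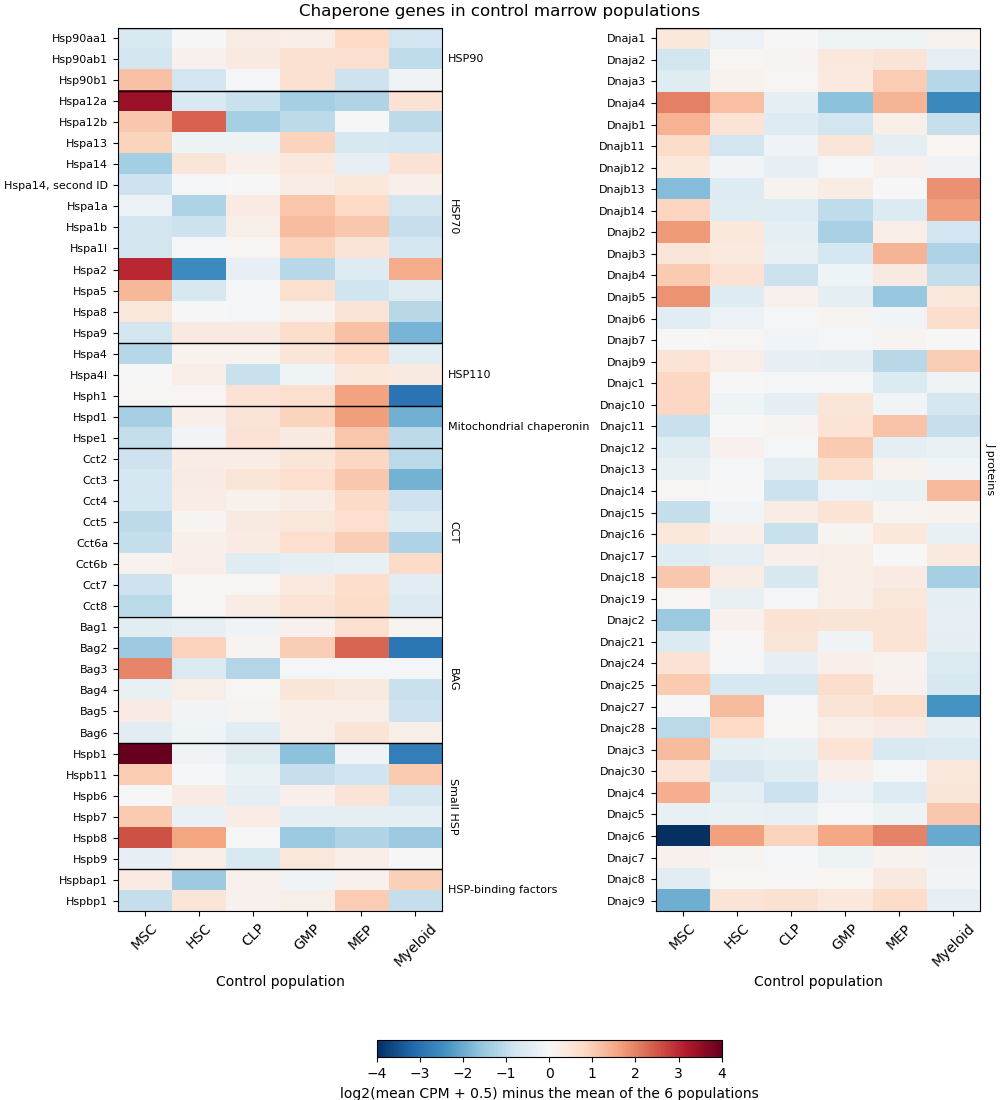
Mean control level of the 83 tested members in each of the 6 sorted populations, as log2(CPM + 0.5) minus the member's mean over the populations, with J proteins in the right panel and the other classes in the left. Cct genes other than Cct6b and the mitochondrial chaperonin are red in MEP and blue in MSC and Myeloid, and MSC has the highest mean of 26 members.

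The ER chaperones were high in stroma and in granulocyte-monocyte progenitors. Of 8 listed genes, 7 were higher in MSC and none lower, and 6 were higher in GMP and none lower. In MEP 5 were lower, in HSC 3 and in Myeloid 3, with none higher in those 3 populations, and none was called in CLP. The HSC count was 1 without pool 3, 5 or 7, which ended the calls of Hspa5 and Hsp90b1, and 2 without the filter. The MEP count was 3 without the filter. Without pool 5 the GMP count was 4, with Dnajb11 and Dnajc10 at adjusted p of 0.136 and 0.0682 (ranges over all alternatives 9.14e-05 to 0.136 and 0.00178 to 0.0724). The MSC count was 6 without pool 3 or 5, which ended the call of Dnajc1, and the Myeloid count was 1 higher and 1 lower with RLE, 1 higher and 4 lower with the mouse pool as a block, and 0 higher and 1 lower without pool 5 or 17.

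Hspa5, which encodes BiP, the HSP70 of the ER (chr2:34771970-34777547, plus strand, GRCm38), had 2609.6, 3253 and 5234 CPM as its lowest, median and highest value in the 6 control MSC libraries. GMP libraries had 1825, 2025, 2158 and 2579.6 CPM and CLP libraries 1239.6, 1248, 1262 and 1683 CPM. HSC libraries had 831, 833 and 1028 CPM, MEP libraries 711, 761, 788 and 905 CPM, and the 6 Myeloid libraries 479, 1025 and 1469 CPM. Every MSC library was above every library of the other 5 populations, and every GMP library was above those of HSC, CLP, MEP and Myeloid. Against the mean of the other 5 populations Hspa5 was higher in MSC by 1.35 ± 0.14 (adjusted p = 1.79e-09). It was higher in GMP by 0.90 ± 0.17 (adjusted p = 0.000207) and lower in MEP (-0.82 ± 0.19, adjusted p = 0.00104). In batch A alone the MSC difference was 0.96 ± 0.14, and without the libraries that stood apart, the plasma cell-rich MSC pool 7 among them, it was 1.24 ± 0.15.

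Hsp90b1 (chr10:86690209-86705509, minus strand) encodes GRP94, the HSP90 of the ER, and also led in MSC and GMP. It averaged 1916 ± 585 CPM in MSC, 1289.8 ± 212 in GMP, 828 ± 61.1 in CLP, 767 ± 289 in Myeloid, 499 ± 59.3 in HSC and 472 ± 62.2 in MEP. Its differences were 1.23 ± 0.16 in MSC, 0.84 ± 0.19 in GMP and -0.89 ± 0.22 in MEP, all called. On the opposite strand its exons share 415 bases with 1810014B01Rik, and whether counting used strand is not stated. Dnajc3 (chr14:118937976-118981697, plus strand), which encodes p58IPK, a J protein that delivers clients to BiP, had 259.6, 310.3 and 391 CPM as its lowest, median and highest value in MSC. GMP libraries had 160.3, 189.9, 194 and 211 CPM, and no library of HSC, CLP, MEP or Myeloid passed 132 CPM. All MSC libraries were above all others. The difference was 1.58 ± 0.13 in MSC (adjusted p = 1.2e-11), and in MEP Dnajc3 was lower (-0.74 ± 0.17, adjusted p = 0.000973, and 0.105 without the filter on low counts, the highest of a range of 7.16e-16 to 0.105).

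Dnajb9 and Dnajb11, both J proteins of the ER lumen, parted from each other. Dnajb9, a repressor of the stress sensor IRE1, averaged 159 ± 51 CPM in Myeloid, 118 ± 31.9 in MSC, 95.6 ± 19.3 in HSC, 63.8 ± 6.49 in CLP, 61.4 ± 7.59 in GMP and 36.8 ± 5.66 in MEP. It was called lower in MEP (-1.11 ± 0.22) and was the 1 ER chaperone of 8 not called in MSC (0.39 ± 0.18, adjusted p = 0.0754). Dnajb11, a cofactor of BiP, averaged 192 ± 85.9 CPM in MSC, 161 ± 18.5 in GMP, 121 ± 13.7 in Myeloid, 106 ± 16.6 in CLP, 88.5 ± 11 in MEP and 67.4 ± 3.15 in HSC. In HSC it was lower than in the other 5 populations by the fit (-0.92 ± 0.23, adjusted p = 0.00428). Hspa13, a microsomal HSP70, was higher in GMP by 1.11 ± 0.21.

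Of 15 other folding and stress-response genes of the ER outside the members, 13 were higher and 1 lower in MSC, 9 and 1 in GMP, 1 and 9 in MEP, 0 and 7 in HSC, and 2 and 6 in Myeloid, with none called in CLP. The MSC count was 8 and 1 without pool 3 or 5 and 7 and 2 in batch A alone. Lower genes numbered 3 and 2 in HSC without pools 3 and 5, 5 in MEP without pool 7 and 3 in MEP without the filter. In Myeloid no gene was higher without pool 7, 15 or 19, and 4 were lower without pool 17. Calr, a lectin chaperone, differed by 0.62 in MSC, and Pdia4, a protein disulfide isomerase, by -0.88 in MEP. Summed markers of plasma cells, which are rich in ER, ranged over 750.2 to 210755 CPM in MSC controls and 1508 to 11577 CPM in CLP controls, and their part in the ER levels was not tested. That marker list shares Xbp1 with the 15 genes.

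**Figure D3:**
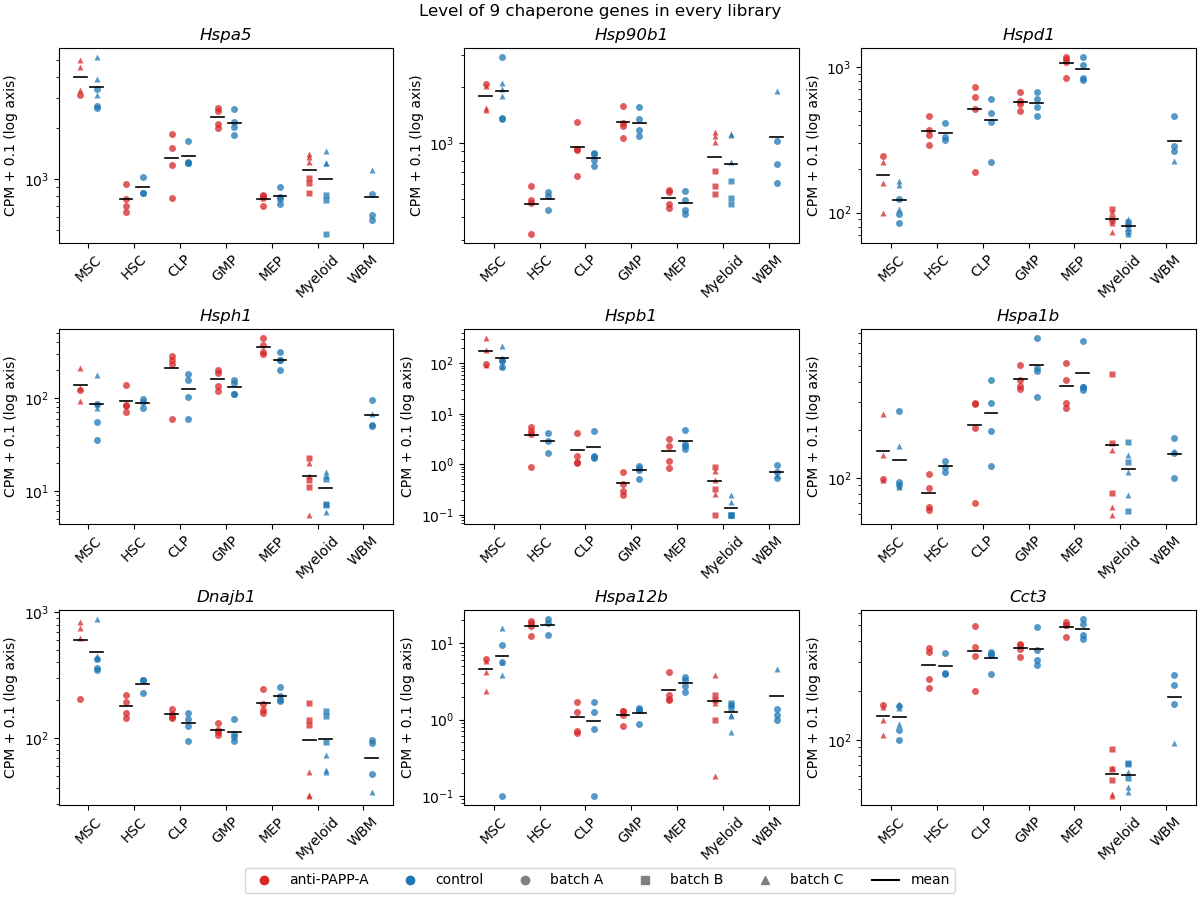
CPM + 0.1 on a log axis for 9 members in every library, anti-PAPP-A in red left of control in blue, with marker shape for batch and a black bar for the mean. Hspa5 and Hsp90b1 have their highest means in MSC and Hspd1 and Hsph1 in MEP, while Hspb1 has 86.9 CPM or more in control MSC libraries and at most 5.48 CPM in the other sorted populations, and Hspa12b has its highest mean in HSC.

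The mitochondrial chaperones had another profile, high in MEP and low in MSC and Myeloid. Hspd1 (chr1:55077835-55088243, minus strand), whose product HSP60 forms the folding ring of the mitochondrial matrix, had 815, 845, 1025 and 1173 CPM in the 4 control MEP libraries. GMP libraries had 463, 529, 605 and 667 CPM, CLP libraries 224, 419.7, 486 and 601 CPM and HSC libraries 316, 328 and 411 CPM. Lowest, median and highest values were 84.8, 115 and 164 CPM in MSC and 71.4, 80.4 and 89.5 CPM in Myeloid. All MEP libraries lay above all other libraries, and all MSC and Myeloid libraries below all HSC, CLP and GMP libraries. The difference from the other 5 populations was 2.09 ± 0.21 in MEP (adjusted p = 6.41e-09), 1.16 ± 0.22 in GMP, -1.62 ± 0.23 in MSC and -2.54 ± 0.36 in Myeloid, each called. Within batch C, Myeloid differed from MSC alone by -0.77 ± 0.23. Of the 31-base words of its transcripts, 50.06% also occur in other annotated genes, chiefly pseudogenes, so its counts depend on how reads were assigned.

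Hspe1, the lid of that ring, starts beside Hspd1 on the other strand (chr1:55088132-55091307, plus strand) and their exons share 112 bases. It averaged 231 ± 35.5 CPM in MEP, 160.2 ± 37.5 in CLP, 137 ± 49.9 in GMP, 98.8 ± 29.4 in HSC, 55 ± 27.4 in MSC and 51.1 ± 33.5 in Myeloid. The 3 MSC controls of batch A had 27.6, 31 and 31.8 CPM and the 3 of batch C 78.1, 78.4 and 83.3 CPM, and Myeloid controls had 16.8, 19.1 and 36.8 CPM in batch B and 54.4, 79.7 and 99.8 CPM in batch C, so that the batches did not overlap in either population. Its difference was 1.68 ± 0.21 in MEP (adjusted p = 2.44e-07) and -1.74 ± 0.23 in MSC (adjusted p = 1.81e-07), and in batch A alone -2.64 ± 0.28 in MSC. Within batch C, where MSC can be set only against Myeloid, the MSC difference was -0.01 ± 0.25 (adjusted p = 0.969, in a range of 3.87e-11 to 0.969 over its alternatives). The GMP call of Hspe1 ended without pool 5 (adjusted p = 0.267, range 0.00257 to 0.267).

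Hspa9, the mitochondrial HSP70 mortalin, averaged 589 ± 88.9 CPM in MEP, 423 ± 52.1 in GMP, 337 ± 32.6 in HSC, 335 ± 121 in CLP, 155 ± 39.3 in MSC and 70.6 ± 16.3 in Myeloid. It was higher in MEP by 1.54 ± 0.19 and lower in Myeloid (-2.48 ± 0.33), and within batch C Myeloid differed from MSC by -1.16 ± 0.24. Dnaja3, its J protein partner, was higher in MEP (1.42 ± 0.18) and lower in Myeloid (-1.94 ± 0.30). Dnajc11, a J protein of the complex that shapes the inner membrane, had 105, 115, 138 and 147 CPM in MEP and at most 85.9 CPM in any other control library of the sorted populations, a difference of 1.43 ± 0.16 (adjusted p = 4.67e-08). Among genes that are no members, Trap1, the mitochondrial HSP90, differed by 1.16 in MEP and -2.37 in Myeloid.

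The subunits of the Cct ring, which folds actin and tubulin, were called in the same direction within each population. Of 8 tested genes 7 were higher in MEP and 6 in GMP with none lower, 7 were lower in MSC and 6 in Myeloid with none higher, and none was called in HSC or CLP. The 6 GMP calls all ended without pool 5, with adjusted p of 0.28 for Cct2, 0.116 for Cct3, 0.111 for Cct5, 0.0867 for Cct6a, 0.218 for Cct7 and 0.0542 for Cct8. Over all alternatives the lowest adjusted p of these 6 lay between 3.41e-05 for Cct3 and 0.0105 for Cct2. In batch C alone, MSC and Myeloid differed from each other in 1 Cct gene each way, and Cct2, Cct4, Cct5, Cct6a and Cct7 did not pass (adjusted p = 0.695, 0.618, 0.738, 0.832 and 0.97).

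Cct3 (chr3:88297116-88321767, plus strand) had 411, 439.8, 507 and 549 CPM in MEP, 287, 309.7, 353 and 491 in GMP, 252, 332, 335 and 344 in CLP and 253, 257 and 338 in HSC. Lowest, median and highest values were 99.3, 141 and 165 CPM in MSC and 47.6, 61.3 and 71.9 CPM in Myeloid. Every MSC library was above every Myeloid library, and both groups were below all the stem and progenitor libraries. Its difference was 1.34 ± 0.20 in MEP, -0.74 ± 0.21 in MSC and -2.38 ± 0.33 in Myeloid (adjusted p = 1.3e-06), and within batch C Myeloid differed from MSC by -1.41 ± 0.21.

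The other ring subunits had their highest mean in MEP as well. Cct2 averaged 614 ± 76.6 CPM in MEP, 479 ± 72.1 in GMP, 423 ± 63.7 in HSC, 417 ± 93.4 in CLP, 191 ± 45.7 in MSC and 164 ± 31.1 in Myeloid. For Cct4 the means were 463 ± 50 CPM in MEP, 336 ± 77.4 in GMP, 336 ± 62.1 in HSC, 306 ± 27 in CLP, 167 ± 34.9 in MSC and 152 ± 33.7 in Myeloid, and for Cct5 574 ± 71.6 CPM in MEP, 495 ± 131 in GMP, 456 ± 57 in CLP, 386 ± 78.6 in HSC, 242 ± 46.6 in Myeloid and 173 ± 72.7 in MSC. Each of these 3 was higher in MEP, by 0.99 ± 0.19, 0.94 ± 0.16 and 1.07 ± 0.20. Cct6a averaged 512 ± 59.1 CPM in MEP, 408 ± 87.6 in GMP, 323 ± 78 in CLP, 294 ± 27 in HSC, 134 ± 38.3 in MSC and 109 ± 15.6 in Myeloid. Means of Cct7 were 424 ± 60.8 CPM in MEP, 346 ± 92.2 in GMP, 277 ± 61.6 in HSC, 276 ± 7.8 in CLP, 193 ± 23.1 in Myeloid and 147 ± 44.7 in MSC, and those of Cct8 515 ± 66.7 CPM in MEP, 445 ± 121 in GMP, 381 ± 28.6 in CLP, 316 ± 66.1 in HSC, 209 ± 66.6 in Myeloid and 147 ± 20.7 in MSC. Their MEP differences were 1.17 ± 0.18, 1.05 ± 0.18 and 0.94 ± 0.16, and Cct8 was lower in MSC (-1.37 ± 0.16, adjusted p = 1.79e-08). Per kilobase of exon the MEP means ranged from 62.5 CPM per kb for Cct7 to 240.0 CPM per kb for Cct2.

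Cct6b, a paralogue that is known mainly from testis, was without a call, at 1.33 ± 1.87 CPM in Myeloid, 0.786 ± 0.0919 in HSC, 0.679 ± 1.09 in MSC, 0.381 ± 0.227 in MEP, 0.34 ± 0.265 in GMP and 0.272 ± 0.376 in CLP. Cct8l1 was not tested for its low counts. Tcp1, the subunit whose symbol the naming rule misses, differed by 1.12 in MEP, 0.82 in GMP, -1.28 in MSC and -1.27 in Myeloid. Prefoldin, the co-chaperone that brings nascent chains to the ring, had 2 of 6 genes higher in MEP, a count of 0 without pool 1 or 5, and 3 lower in MSC, with no call in the other 4 populations.

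Summed over 10 proliferation genes, MSC controls had 159 to 477 CPM, against 2831 to 3860.2 in MEP, 2669 to 3214 in GMP, 2338 to 3868 in CLP, 1981 to 2811 in HSC and 2168 to 2822 in Myeloid. All 10 were lower in MSC. In MEP 9 were higher (5 without pool 1 or 5), in GMP 6 (10 without pool 15) and in CLP 7 (3 without pool 3 or 5), while in HSC 3 were higher (0 without pool 3) and in Myeloid 2 lower (4 without pool 15). Their part in the chaperone differences was not tested.

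Hsp90aa1, Hsp90ab1, Hspa8 and all 3 HSP110 genes had their highest mean in MEP. Hsp90ab1, the constitutive HSP90, averaged 3082 ± 384 CPM in MEP, 2984 ± 347 in GMP, 2508 ± 249 in CLP, 2209 ± 107 in HSC, 1184 ± 475 in MSC and 988 ± 85.3 in Myeloid. No MSC or Myeloid library reached the lowest of the other 4 populations. The difference was 1.07 ± 0.16 in MEP, 1.01 ± 0.16 in GMP, 0.61 ± 0.16 in CLP, -1.18 ± 0.16 in MSC and -1.96 ± 0.25 in Myeloid, each called. The CLP call was lost without pool 3 (adjusted p = 0.0637) and without pool 7 (0.0503), over a range of 1.88e-10 to 0.0637 among its alternatives. Hsp90aa1 averaged 2112 ± 340.0 CPM in MEP, 1498 ± 207 in CLP, 1466 ± 347 in GMP, 1245 ± 319 in HSC, 809.5 ± 470.1 in MSC and 728 ± 205 in Myeloid. It shares 51.43% of its 31-base words with other genes.

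Hspa8, the constitutive HSP70 that serves most cytosolic clients, averaged 4032 ± 642 CPM in MEP, 3885 ± 2170.1 in MSC, 3129.6 ± 429.6 in GMP, 2842 ± 721 in HSC, 2729.7 ± 1015 in CLP and 1319 ± 419 in Myeloid. It was called lower in Myeloid (-1.98 ± 0.44) and higher in MEP (0.93 ± 0.27), the MEP call with adjusted p of 0.0546 and 0.0531 without pools 5 and 7 (range 0.000958 to 0.0546). Its MSC libraries spread over 1974 to 7334 CPM, a range that covers all libraries of the stem cells and progenitors apart from 1418 CPM in 1 CLP library. That spread was split by batch, with every MSC library of batch A below every one of batch C. Those of batch A were also below all HSC, GMP and MEP libraries, which are of batch A too, and below the CLP libraries apart from the 1 at 1418 CPM.

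Hsph1, the inducible HSP110 (chr5:149614287-149636376, minus strand), had 203, 258, 261 and 315 CPM in MEP, 110.0, 110.1, 145 and 156 in GMP, 59.6, 102, 155 and 179.8 in CLP and 78.1, 90.4 and 96.7 in HSC. Lowest, median and highest were 34.9, 82.4 and 177 CPM in MSC and 5.74, 10.1 and 15.7 CPM in Myeloid. All MEP libraries exceeded all others, and all Myeloid libraries were below all others. The difference was 2.22 ± 0.27 in MEP (adjusted p = 2.88e-07) and -4.13 ± 0.49 in Myeloid (adjusted p = 1.25e-07), and within batch C Myeloid differed from MSC by -3.21 ± 0.49. Hspa4, a second HSP110, was higher in MEP by 0.90 ± 0.22. Hspa4l, the third, was higher in MEP by 1.14 ± 0.31, with an adjusted p of 0.0654 without pool 5 (range 7.42e-06 to 0.0654).

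Of 20 listed partners of HSP70 and HSP90 outside the members, 10 were higher in MEP and 8 in GMP with none lower, and 13 were lower in Myeloid with none higher. Higher genes numbered 6 in MEP without pool 7, and 4 and 13 in GMP without pools 5 and 15. In MSC 3 were higher and 8 lower, in HSC 1 and 1, and in CLP none was called, although RLE and DESeq2 gave 3 higher there. Stip1, which links HSP70 to HSP90, differed by 1.12 in MEP and -1.34 in Myeloid, and Hsf1 by 0.82 in MEP and -2.40 in Myeloid.

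The inducible HSP70 pair Hspa1a and Hspa1b (chr17:34969190-34972156, minus strand, and chr17:34956436-34959238, minus strand) was lower in stem cells than in the progenitors. Because 65.44% and 68.0% of their 31-base words occur elsewhere, chiefly in each other, their split is uncertain and the sum is given too. Hspa1a had 62, 81 and 101 CPM in HSC, 115, 219.6, 251 and 364 in CLP, 270.3, 358, 410.3 and 616 in GMP and 241, 244, 261 and 567 in MEP. Hspa1b had 109, 117 and 127 CPM in HSC, 118, 196, 294 and 409.7 in CLP, 321, 463, 484 and 750.2 in GMP and 353, 372, 372 and 717 in MEP. All GMP and MEP libraries were above all HSC libraries for both genes, while CLP overlapped HSC for Hspa1b. The sum was 199 ± 17.2 CPM in HSC, 492 ± 227 in CLP, 918 ± 325 in GMP and 781 ± 335 in MEP. Against the mean of CLP, GMP and MEP, the differences in HSC were -1.98 ± 0.47 for Hspa1a (adjusted p = 0.00276) and -1.73 ± 0.38 for Hspa1b (adjusted p = 0.00129). In MSC the lowest, median and highest sums were 162, 185 and 683 CPM, and in Myeloid 129, 229.8 and 335 CPM, so both populations held libraries below the HSC mean.

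Of the 13 genes listed as driven by HSF1, 8 were higher in MEP with none lower, 7 higher and 1 lower in GMP (4 and 1 without pool 5), and 9 lower in Myeloid with none higher. MSC had 3 higher and 6 lower. The 3 were Hspb1, Dnajb1 and Bag3, and the 6 were Hsp90aa1, Hsp90ab1, Hspa4l, Hspd1, Hspe1 and Hspa1b, so the list did not move in 1 direction in stroma. Within batch C, against Myeloid alone, 7 were higher and none lower in MSC. Immediate-early genes, which respond within minutes to handling of cells, summed to 11458 to 35403 CPM in MSC controls, 8823 to 23797 in Myeloid, 9468 to 16065 in HSC, 5845 to 9515 in CLP, 5109.6 to 6211 in GMP and 6478 to 8969 in MEP. Their part in these levels was not tested.

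The small heat shock protein Hspb1, HSP27/HSP25, an ATP-independent holdase that guards actin (chr5:135887919-135889563, plus strand), was nearly confined to stroma among the sorted cells. Lowest, median and highest values were 86.9, 116 and 223 CPM in MSC. HSC libraries had 1.58, 2.81 and 4.09 CPM, CLP 1.22, 1.32, 1.36 and 4.52, GMP 0.401, 0.685, 0.728 and 0.834 and MEP 1.95, 2.25, 2.45 and 4.62 CPM, and 4 of 6 Myeloid libraries had no count. No other sorted control library passed 4.62 CPM. The MSC difference was 6.92 ± 0.27 (adjusted p = 2.9e-19), and 5.55 ± 0.26 in batch A alone. GMP was lower than the mean of the other 5 (-1.89 ± 0.43). Of its 31-base words, 52.33% occur in the pseudogene Hsp25-ps1.

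Hspb8, the partner of Bag3 in selective autophagy, was present in stroma and stem cells. Its lowest, median and highest values in MSC were 0, 6.75 and 18 CPM. HSC libraries had 3.05, 3.44 and 4.51 CPM, MEP libraries 0.0233, 0.0697, 0.0942 and 0.237 and CLP libraries 0, 0.583, 0.659 and 2.44 CPM, and it was listed at 0 in all 4 GMP libraries. HSC and MEP libraries did not overlap, and HSC was higher than the other 5 populations (5.13 ± 0.66). Fitted values of a gene with several libraries at 0 depend on the prior count.

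Hspa12a and Hspa12b are distant members of the HSP70 family. Hspa12b (chr2:131127280-131146321, plus strand), which is best known from endothelium, had 12.7, 18 and 20.8 CPM in HSC, 2.16, 2.64, 3.19 and 3.49 in MEP, 0.778, 1.21, 1.21 and 1.34 in GMP and 0, 0.659, 1.17 and 1.6 in CLP. The HSC libraries were above all progenitor libraries, with a difference of 3.52 ± 0.40 from the other 5 populations (adjusted p = 8.94e-08) and 3.50 ± 0.42 from the 3 progenitors. Endothelial markers summed to 65 to 90.6 CPM in these HSC libraries, 66 to 89.7 in GMP and 66.5 to 103 in CLP, with all 4 markers detected in each group. They were lower elsewhere, at 21.9 to 51.3 CPM in MEP, 8.22 to 43.4 in MSC and 4.93 to 17.0 in Myeloid controls. Their part in the Hspa12b levels was not tested. In MSC Hspa12b had 0, 5.57 and 15.8 CPM as its lowest, median and highest value, and the highest of these was above the lowest HSC library. It was called higher in MSC too (1.44 ± 0.38), a call that ended without pools 3 and 5 (adjusted p = 0.33 and 0.0659, range 0.000407 to 0.33). Hspa12a had its highest mean in MSC, with 6.21, 13.2 and 20.5 CPM as its lowest, median and highest MSC value and no library of HSC, CLP, GMP or MEP above 0.659 CPM (6.72 ± 0.59 in MSC).

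J proteins, which choose the client for HSP70, gave varied profiles. Of 41 tested, 17 were higher and 10 lower in MSC, 5 and 14 in Myeloid, 11 and 3 in both GMP and MEP, 7 and 3 in HSC, and 3 and 4 in CLP. Of all genes tested, 28.7% were higher and 20.1% lower in MSC, 14.2% and 19.9% in Myeloid, and 12.1% and 7.24% in GMP. The shares were 15.1% and 10.1% in MEP, 12.3% and 5.74% in HSC, and 7.43% and 5.2% in CLP. The lower counts in MSC and HSC and the higher count in CLP were near these shares. Without pool 3 the MSC count was 10 and 11 and the HSC count 2 and 1, and without pool 5 the GMP count was 4 and 0. The CLP count was 1 and 2 without pool 3 and 1 and 0 without pool 5. Dnajb1, the main inducible partner of Hspa1a (chr8:83608193-83612653, plus strand), had 348, 431 and 888 CPM as its lowest, median and highest value in MSC. It had 229, 289 and 292 CPM in HSC, 195, 200.3, 217 and 255 in MEP, 95.5, 126, 143 and 159 in CLP and 94.8, 101, 107 and 142 in GMP. Myeloid libraries had 92.5, 149.5 and 163 CPM in batch B and 53.9, 55.8 and 73.2 CPM in batch C. All MSC libraries were above all others, with a difference of 1.79 ± 0.21 (adjusted p = 1.44e-08). Dnaja1, a constitutive cytosolic J protein called in none of the 6 contrasts, had its highest mean, 478 ± 282 CPM, in MSC. The means were 400.1 ± 160.2 CPM in Myeloid, 353 ± 56.8 in CLP, 321 ± 46.3 in MEP, 322 ± 36.2 in GMP and 308 ± 55 in HSC.

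Dnajc6, auxilin, which strips clathrin from vesicles with Hspa8 (chr4:101496648-101642799, plus strand), was nearly confined to haematopoietic precursors. It had 52.5, 52.9, 58.3 and 62.3 CPM in MEP, 35, 45.8 and 51.8 in HSC, 27.7, 40.1, 46.3 and 52.9 in GMP and 13.3, 25.6, 29.6 and 37.8 in CLP. MSC libraries had at most 0.967 CPM and Myeloid libraries at most 4.43 CPM, with no overlap with the precursors. The difference was -5.37 ± 0.44 in MSC (adjusted p = 5.38e-12), 1.82 ± 0.32 in HSC and 1.77 ± 0.30 in GMP. Against Myeloid alone within batch C the MSC difference was -3.53 ± 1.45 (adjusted p = 0.0785, in a range of 3.63e-29 to 0.0785 over its alternatives). Dnajc9, a histone chaperone, and Dnajc2, a ribosome-bound J protein, were also lower in MSC (-2.36 ± 0.22 and -1.98 ± 0.21).

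Some J proteins were lower in GMP or MEP. In GMP Dnajb2, a J protein with ubiquitin-binding motifs, and Dnajb14, anchored in the ER membrane, differed by -1.20 ± 0.32 and -1.10 ± 0.28, and both calls ended without pool 3 (adjusted p = 0.089 and 0.0634) and without pool 5 (0.0662 and 0.0531), over ranges of 4.36e-07 to 0.089 and 0.0002 to 0.0634. Dnajb2 was also lower in Myeloid (-2.28 ± 0.45). In MEP Dnajb5 differed by -2.03 ± 0.51, with an adjusted p of 0.0785 without pool 5 (range 3.75e-06 to 0.0785).

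In Myeloid cells 5 J proteins were higher, against 33 members that were lower. Dnajc5, the cysteine string protein of secretory vesicles, had 183, 246 and 273 CPM as its lowest, median and highest value in Myeloid, and no other sorted control library passed 130.3 CPM. Its difference was 1.32 ± 0.23 (adjusted p = 3.1e-05). Dnajc14 and Dnajb14, both anchored in the ER membrane, were higher by 1.53 ± 0.32 and 1.76 ± 0.39, and Dnajb6, a suppressor of aggregation, by 0.64 ± 0.23. The Dnajb6 call was lost without pool 3, 5 or 17 (adjusted p = 0.181, 0.192 and 0.154) and without the filter (0.227), over a range of 0.000811 to 0.227. Dnajb7 was the fifth, but averaged 0.253 CPM, and its call ended without pool 3 (adjusted p = 0.256) or pool 17 (1.0), over a range of 0.0108 to 1.0.

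Set directly against GMP, Myeloid cells had 6 of 83 members higher and 34 lower, where 11.0% and 16.3% of all genes were called, with a members' median of -1.08 against -0.21 for all genes. All 3 HSP90 genes, both mitochondrial chaperonin genes and 7 of 8 Cct genes were lower. Hsph1 differed by -4.29 ± 0.56, Hspd1 by -3.09 ± 0.41, Hspa9 by -2.86 ± 0.37, Cct3 by -2.70 ± 0.38 and Hsp90ab1 by -2.47 ± 0.29. The Hsp90b1 call ended with RLE, with DESeq2 and without pool 1, 5, 15, 17 or 19, over a range of 0.00236 to 0.218. Dnajb14 was higher by 2.38 ± 0.46, Hspa12a by 5.47 ± 1.44, Dnajc5 by 1.12 ± 0.27, Dnajc14 by 1.50 ± 0.38 and Hspb11 by 2.00 ± 0.63. The Hspa12a value lies at the floor. Its counts were 0, 0, 1 and 0 in the GMP controls and 0, 12 and 23 in the Myeloid controls of batch C. Dnajc14 ended without pools 3 and 15 (adjusted p = 0.0535 and 0.0855, range 8.61e-07 to 0.0855), Dnajc5 without the filter (0.0607, range 4.92e-08 to 0.0607), and Hspb11 without pools 3, 5 and 17 (0.0681, 0.168 and 0.0991, range 0.00177 to 0.168). The populations share no batch, and no value within a batch could be had. Within batch C, Myeloid could be set against MSC alone, and there 9 members were higher and 27 lower of 78 tested.

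HSC differed from the progenitors beside them in 17 of 83 members. Against the mean of CLP, GMP and MEP, all from batch A, 8 were higher and 9 lower (11.6% and 4.9% of all genes). The higher share was close to that of all genes and the lower share above it. DESeq2 gave 8 and 17. Hspa12b, Hspb8, Hspa1a and Hspa1b, described above, remained called without each of pools 3, 5 and 7. Hspbap1, a factor that binds Hspb1, was lower (-1.75 ± 0.45, adjusted p = 0.119 without pool 7, range 3.33e-05 to 0.119). Dnajb11 was lower by the fit (-0.78 ± 0.23, adjusted p = 0.0996 without pool 5, range 1.96e-05 to 0.0996).

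With 3 HSC libraries the other calls were thin, and leaving out pool 3, 5 or 7 left 6, 5 and 6 of the 17. Hspd1 differed by -0.83 ± 0.26 (adjusted p = 0.12, 0.224 and 0.0791 without pools 3, 5 and 7, range 0.001 to 0.224). Hspe1 differed by -0.81 ± 0.25 (adjusted p = 0.102 and 0.289 without pools 3 and 5, range 0.00349 to 0.289). The values were 0.81 ± 0.22 for Dnajb4, a cytosolic J protein (0.152, 0.0892 and 0.0556 without pools 3, 5 and 7, range 0.00213 to 0.152), and 0.86 ± 0.21 for Dnajb9 (0.0562, 0.0524 and 0.105, range 0.000543 to 0.105). They were 0.87 ± 0.25 for Dnajb1 (0.13, 0.236 and 0.0664, range 0.0012 to 0.236) and -0.63 ± 0.19 for Dnajc11 (0.0935, 0.0803 and 0.272, range 0.00105 to 0.272).

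Against the mean of the other 5 populations, Dnajb4 was higher in HSC by 0.90 ± 0.22 and Hspbap1 lower (-2.06 ± 0.47). Both calls held without each of pools 3, 5 and 7. The highest means of Dnajb4 and of Dnaja4, given below, were in MSC, at 96.6 and 17.8 CPM. The ER genes Hspa5 and Hsp90b1 differed by -0.65 ± 0.21 and -0.85 ± 0.24. Their calls ended without pools 3, 5 and 7, with adjusted p of 0.159, 0.214 and 0.0928 for Hspa5 (range 0.000329 to 0.214) and 0.0657, 0.157 and 0.0503 for Hsp90b1 (range 0.000865 to 0.157). Dnaja4 differed by 2.10 ± 0.54 (adjusted p = 0.0542 and 0.105 without pools 3 and 5, range 5.26e-05 to 0.105), and Hspa1a by -1.55 ± 0.46 (0.0763 without pool 3, range 0.000555 to 0.0763).

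CLP had 11 members called with TMM factors, against 17 with RLE, 19 with DESeq2 and 21 in batch A alone. Hspe1 was higher by 0.93 ± 0.22 (adjusted p = 0.00355), the ribosome-linked Dnajc2 and Dnajc21 by 0.72 ± 0.19 and 0.62 ± 0.21, and Dnajc9 by 0.69 ± 0.20. Dnajc14 differed by -1.07 ± 0.24, Dnajb4 by -0.92 ± 0.24, Bag3 by -1.06 ± 0.30, Dnajc16 by -1.12 ± 0.33 and Dnajc25 by -0.79 ± 0.26. Control CLP pool 1 carried the neutrophil markers. Leaving out pool 1 also removes its GMP, MEP and WBM libraries, whose part cannot be told apart from that of the CLP library. Without pool 1 the adjusted p was 0.0649 for Hspe1, 0.189 for Dnajc2, 0.295 for Dnajc21, 0.0752 for Dnajb4, 0.157 for Bag3, 0.181 for Dnajc16 and 0.115 for Dnajc25. With the mouse pool as a block Dnajc25 had an adjusted p of 0.0729. Without pool 5 it was 0.0809 for Dnajc9 and 0.0621 for Dnajc14. Ranges over all alternatives were 9.68e-05 to 0.0649 for Hspe1, 0.00025 to 0.189 for Dnajc2, 0.000718 to 0.295 for Dnajc21 and 9.25e-06 to 0.138 for Dnajc9. For the 5 lower ones they were 0.000547 to 0.0621 for Dnajc14, 0.000102 to 0.0942 for Dnajb4, 0.000249 to 0.157 for Bag3, 0.00301 to 0.181 for Dnajc16 and 0.00448 to 0.419 for Dnajc25. The CLP count was 17, 19 and 17 without pools 11, 15 and 17, which hold no CLP library.

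Among the BAG genes, nucleotide exchange factors for HSP70, Bag2 and Bag3 had contrary profiles. Bag2, an inhibitor of the ligase CHIP, averaged 53.1 ± 9.09 CPM in MEP, 20.6 ± 2.84 in GMP, 19.5 ± 4.02 in HSC, 11.1 ± 9.63 in CLP, 3.37 ± 3.3 in MSC and 0.947 ± 0.465 in Myeloid. It was called higher in MEP (3.24 ± 0.42) and lower in Myeloid (-5.06 ± 0.80). Bag3, which HSF1 induces and which steers clients to autophagy (chr7:128523616-128546981, plus strand), had 43.4, 70 and 293 CPM as its lowest, median and highest value in MSC, while the stem and progenitor libraries ran between 8.24 and 30.9 CPM. Myeloid libraries had 17.7, 24.3 and 34.7 CPM. The MSC difference was 1.82 ± 0.23 (adjusted p = 5.32e-08).

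The population means of the other BAG genes were flatter. Bag1 averaged 199 ± 29.6 CPM in MEP, 145 ± 38.7 in GMP, 137 ± 13.2 in Myeloid, 116 ± 17.5 in CLP, 101 ± 16 in HSC and 95.7 ± 31 in MSC. Bag6, which handles tail-anchored proteins, averaged 189 ± 24.8 CPM in MEP, 156 ± 120.1 in Myeloid, 154 ± 31.1 in GMP, 117 ± 28.3 in HSC, 98 ± 35.3 in MSC and 97.1 ± 40.3 in CLP. Every Myeloid control of batch B was above every one of batch C for Bag6, so the place of Myeloid in this order depends on the batch. Bag1 was higher in MEP (0.96 ± 0.19), and Bag6 too (0.98 ± 0.32), the Bag6 call with adjusted p of 0.0609, 0.057, 0.0746 and 0.143 without pools 1, 3, 5 and 7 (range 0.00119 to 0.143). Bag4 averaged 32.1 ± 1.52 CPM in GMP, 30.6 ± 2.52 in MEP, 27.3 ± 3.35 in HSC, 23.8 ± 2.25 in CLP, 18.8 ± 9.69 in MSC and 12.2 ± 1.89 in Myeloid, and Bag5 31.5 ± 12.2 CPM in MSC, 29.8 ± 2.27 in MEP, 29.4 ± 6.31 in GMP, 27 ± 4.56 in CLP, 23.3 ± 2.28 in HSC and 13.7 ± 3.88 in Myeloid.

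The antibody against PAPP-A changed no member past the threshold in the fits made within each population. Of the members tested within each population with edgeR, 0 of 78 were called in MSC (0.0313% of all genes tested were called), 0 of 76 in HSC (0.0069%), 0 of 72 in CLP, 0 of 77 in GMP, 0 of 76 in MEP and 0 of 76 in Myeloid (0.0% of all genes in each of these 4). DESeq2 called none either. At an unadjusted p under 0.05 there were 6 members in HSC, 5 in MEP, 2 in MSC and 2 in Myeloid with edgeR. There were 0 in CLP and 0 in GMP. DESeq2 gave 5, 5, 2, 3, 0 and 3 in the same order. Without any effect about 1 test in 20 would pass, and these counts were not set against all genes. The members' median log2 difference was 0.08 in HSC, 0.07 in MEP, 0.04 in MSC, 0.04 in CLP, 0.01 in GMP and -0.02 in Myeloid, and that of all genes lay between -0.03 and 0.03. The 5 pathway lists outside the members had no called gene in any population either, with 6 to 20 genes in each list.

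**Figure D4:**
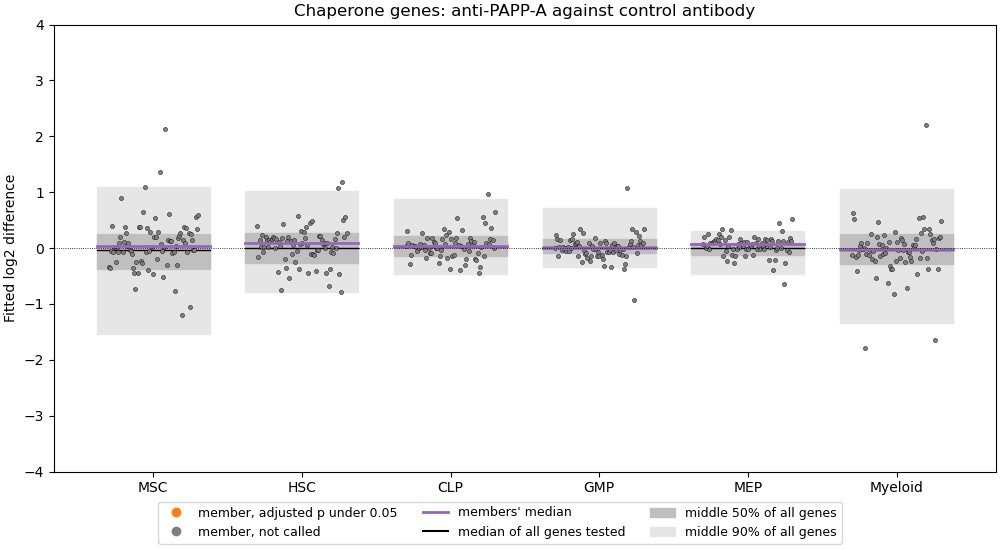
Fitted log2 difference, anti-PAPP-A minus control, of each tested member (points) in the 6 sorted populations, with the members' median in purple and the median, middle 50% and middle 90% of all genes tested as a black line and grey boxes. No point is orange, since no member was called, and the purple lines lie between -0.02 and 0.08.

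In MEP the 3 members with the smallest p were Hsph1, Hspa4l and Hspa8. Hsph1 had 296, 316, 371 and 448 CPM in anti-PAPP-A libraries, against 203, 258, 261 and 315 CPM in controls, a difference of 0.51 ± 0.14 (adjusted p = 0.999 with edgeR). In this gene and the next 2, the highest control library lay above the lowest treated one. Hspa4l, a second HSP110, had 80, 82.1, 107 and 115 CPM, against 64.3, 67.6, 72.8 and 85.5 CPM in controls (0.45 ± 0.12, adjusted p = 0.999 with edgeR). Hspa8 had 4286, 4650.3, 4952 and 5300.0 CPM, against 3346, 3861, 4032 and 4891 CPM in controls (0.30 ± 0.10, adjusted p = 0.999 with edgeR). None of the 3 passed the adjustment.

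In HSC the smallest p belonged to Hspa1a, Hspb11 and Hspe1, and none passed the adjustment. Hspa1a had 32.6, 32.9, 50 and 61 CPM in anti-PAPP-A libraries and 62, 81 and 101 CPM in controls (-0.68 ± 0.23, adjusted p = 0.61 with edgeR). The groups did not overlap, but the gene was picked by its p from these same values, so this adds no support. The sum of Hspa1a and Hspa1b was 125 ± 29.9 CPM after anti-PAPP-A and 199 ± 17.2 CPM in controls (SD, n = 4 and 3), with a highest treated value of 168 CPM and a lowest control value of 179 CPM. Immediate-early genes summed to 5588 to 7776 CPM in treated HSC and 9468 to 16065 CPM in control HSC, and to 3738 to 6788 and 6478 to 8969 CPM in treated and control MEP. None of those genes was called, and their part in the HSC values was not tested. Hspb11 had 5.48, 11.3, 11.4 and 20.3 CPM in treated HSC and 5.49, 5.87 and 9.67 CPM in controls (1.08 ± 0.38, adjusted p = 0.61 with edgeR), and Hspe1 had 87.7, 129, 145 and 145 CPM in treated HSC and 79.1, 84.9 and 133 CPM in controls (0.55 ± 0.22, adjusted p = 0.618 with edgeR). Both pairs of groups overlapped. Treated HSC pool 6 held the fewest counts of the series.

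In MSC Dnajc11 averaged 47 ± 7.94 CPM after anti-PAPP-A and 30.4 ± 7.75 CPM in controls (SD, n = 4 and 6), a difference of 0.65 ± 0.26 (adjusted p = 0.999 with edgeR). Hspd1 averaged 181 ± 65.8 and 121 ± 31.6 CPM in treated and control MSC (0.55 ± 0.25), and Hspa8 5630.0 ± 1768 and 3885 ± 2170.1 CPM (0.36 ± 0.18). The stromal Hspb1 was at 175 ± 107 CPM after anti-PAPP-A and 127 ± 50 CPM in controls (0.28 ± 0.35, adjusted p = 0.999 with edgeR), and Hspa5 at 3994 ± 929 and 3479.6 ± 976 CPM (0.08 ± 0.18). Of the treated libraries only pool 8 came from batch A, against pools 3, 5 and 7 of the controls. The means therefore mix the batches unequally, while the fitted differences have batch as a term. In batch C alone, with 3 libraries a group, the difference was 0.61 ± 0.30 for Dnajc11, 0.18 ± 0.28 for Hspd1 and 0.15 ± 0.20 for Hspa8. The treated and control libraries of Dnajc11 did not overlap (40.2 to 58.5 and 18.5 to 39.4 CPM), and those of the other 4 genes did. Dnajc11 too was picked by its p from these same values.

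In Myeloid cells the smallest p belonged to Dnajc17, a nuclear J protein linked to splicing, with 10.6 ± 6.56 CPM after anti-PAPP-A and 16.3 ± 4.34 CPM in controls (SD, n = 6 each). The difference was -0.83 ± 0.29 (adjusted p = 0.995 with edgeR). Bag3 averaged 36.5 ± 10.5 and 25.5 ± 7.07 CPM (0.52 ± 0.24) and Hspa4 127 ± 42.1 and 161 ± 42.4 CPM (-0.38 ± 0.19) in treated and control Myeloid libraries. In batch C alone the 3 differences were -1.39 ± 0.50, 0.71 ± 0.29 and -0.69 ± 0.23. In CLP the smallest p were those of Hspa4l (0.56 ± 0.27), Dnajc5 (-0.30 ± 0.17) and Hsph1 (0.65 ± 0.43), and in GMP those of Hspa8 (0.34 ± 0.16), Dnajc27 (-0.32 ± 0.15) and Hspb1 (-0.94 ± 0.48), each with an adjusted p of 1.0 with edgeR. Hspa8 was among the 3 smallest p in MSC, GMP and MEP, at 0.36, 0.34 and 0.30, from separate control libraries of partly shared pools. It was picked there by its p from these same values, so their likeness adds no support, and the other populations are not given.

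Whether the response to the antibody differed between the 6 sorted populations was tested in 1 edgeR fit of 53 libraries. None of 83 members was called, where 0.0511% of 21525 genes were, and 1 member had an unadjusted p under 0.05. That member was Hspb1 (adjusted p = 0.157). Dnajc6 and Dnajb9 came next (adjusted p = 0.773 and 0.921). In the Myeloid libraries, where the joint fit called Hspb1 higher after anti-PAPP-A (4.13 ± 0.80, adjusted p = 0.0209), it had lowest, median and highest values of 0, 0.308 and 0.77 CPM in treated and 0, 0 and 0.147 CPM in control libraries, and the fit within Myeloid did not test it because of its low counts.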

How the data were processed

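RNA sequencing of 57 libraries was deposited by the authors as 1 table of expected counts per gene and library. Per the submitters' processing notes, reads were checked with FastQC 0.11.5 and quantified with Salmon on mm10; its version, annotation and strand setting are not given there. The deposited counts were whole, so no rounding was needed. The table's 7385832 lines hold repeated lines, and 0 of 3210924 gene and library pairs differed between repeats.

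Groups, pools and batches came from the labels. Treatment was tested within each population, with batch as a term in MSC and Myeloid, and each control population was set against the mean of the other 5 in a fit of 31 libraries with population and batch. Each fit used edgeR 4.0.16 (R 4.3.3) with TMM factors, filterByExpr and robust quasi-likelihood tests with Benjamini-Hochberg adjustment over all genes tested. The steps were tested on simulated data. Positions are from GENCODE M21 (GRCm38) and promoters from RefSeq. Alternatives were RLE factors, no filter, DESeq2 1.42.0, a pool block, single batches, a joint fit, and leaving out libraries or pools.

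Pool numbers pair libraries because the labels give the same mouse pool across populations. Deviations of same-numbered control libraries correlated by -0.455 to 0.403 over 51 pairs (median 0.0289), 10 of them over 0.1. Over 102 replicate pairs the lowest chi-square per degree of freedom was 1.89, so no library was counted as a repeat of another. P-values measure the spread between pools.

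The members and lists were chosen with earlier results of these data known. Named were, per control contrast, up to 5 higher and 5 lower members with the smallest p past the threshold, per treatment comparison the 3 with the smallest p, and a set list given in every population.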

Additional observations from a re-analysis of the deposited data

Results flagged for a closer look

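Among 216 groups of 4 to 6 libraries, over 18 members given by library, 25 values stood far from the other libraries of their group. Chance alone would single out about 1 group in 20.

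Control MSC pool 15 was above the other 5 control MSC libraries for Dnajb1 (888 CPM, others 348 to 446), Bag3 (293 CPM, others 43.4 to 95.1), Hspb1 (223 CPM, others 86.9 to 127) and Hsph1 (177 CPM, others 34.9 to 86.9). Control MEP pool 7 was above its group for Hspa1a (567 CPM, others 241 to 261) and Hspa1b (717 CPM, others 353 to 372). Anti-PAPP-A Myeloid pool 14 had 446 CPM of Hspa1b, against 58.9 to 165 CPM, and anti-PAPP-A HSC pool 6, the library with the fewest counts, had 49.3 CPM of Bag3, against 14.6 to 17.3 CPM.

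The CLP libraries with neutrophil markers were also among them. Anti-PAPP-A pool 2 had 4.02 CPM of Hspb1 (others 0.975 to 1.35) and 80.8 CPM of Hspa1a (others 209 to 229). Control pool 1 had 4.52 CPM of Hspb1 (others 1.22 to 1.36), 1683 CPM of Hspa5 (others 1239.6 to 1262), 216 CPM of Hspe1 (others 139 to 146) and 252 CPM of Cct3 (others 332 to 344).

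Anti-PAPP-A MEP pool 4 had 502 CPM of Hspa9, below the others at 643 to 666 CPM, and 4.08 CPM of Hspa12b, above the others at 1.68 to 1.97 CPM. Hspe1 had 211 CPM in control GMP pool 5, above 106 to 123 CPM. In whole marrow Hspa9 had 267 CPM in pool 7, above 202 to 212 CPM, and Hspa12b 4.51 CPM in pool 15, above 0.872 to 1.27 CPM.

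The remaining values lie near 0 and rest on few counts. Hspa12a had 0.766 CPM in anti-PAPP-A HSC pool 2, 0.659 CPM in control CLP pool 7, 0.0311 CPM in control GMP pool 5, 0.247 CPM in anti-PAPP-A MEP pool 2 and 0.209 CPM in control MEP pool 1, with the others of each group at or under 0.0971 CPM. Hspb8 had 0.0751 CPM in control Myeloid pool 17, with no count in the other 5.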

How the results depend on the processing

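The count of members called moved by over 1.5 times in these cases. CLP had 11 with TMM factors, against 17 with RLE, 6 without the filter, 19 with DESeq2, 21 in batch A alone and 4 to 19 when 1 control pool was left out. HSC had 19, against 6 to 23 with a pool left out, and GMP 36, against 15 to 45. HSC against the progenitors had 17, against 11 without the filter and 5 to 21 with a pool left out. MSC had 58, against 36 in batch C alone, where Myeloid is the only comparison. The joint fit of 53 libraries called 1 member (Hspb1) in Myeloid after anti-PAPP-A, and the test of treatment by population called 0 to 1 members when 1 pool was left out, the 1 without pool 10. Among named members 1263 values in control contrasts kept direction and side of the threshold and 94 kept direction only; all 254 treatment values kept both. The cause was not tested, except that fewer libraries or genes enter some of these fits. With the mouse pool as a replicate block the paired counts were MSC 58, HSC 17, CLP 12, GMP 36, MEP 41, Myeloid 44, HSC against progenitors 18 and Myeloid against GMP 46, and of 258 calls 250 were made again; among named members the block ended only the CLP call of Dnajc25. Treated and control pools share no number, so treatment has no paired fit. Depth was lowest in 4 libraries, 2 of MSC, 1 of HSC and 1 of CLP, which held under 1000000 counts, and without these 243 of the 258 calls were made again.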
